A study of Mus musculus with 8 samples.

Results

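The autophagy and mitophagy machinery was followed in the RNA seq of mouse cochleae through 49 genes. The genes were taken by symbol from 6 steps of the pathway, 16 of initiation, 10 of conjugation, 5 of the LC3 family, 5 cargo receptors, 7 of mitophagy and 6 of lysosomal fusion. The count tables name 47628 entries, and all 49 genes were among the 19366 genes with enough counts to be tested. Cochlear RNA of 4 WT mice (animals 4, 5, 6 and 8) was compared with that of 4 *Opa1*+/- mice (animals 2 and 7, and a pair with 3-digit numbers, called A for the lower and B for the higher number), all 21 days old. The *Opa1*+/- mice were heterozygous for a germline knock-in, the delTTAG deletion in *Opa1*, which encodes a dynamin-related GTPase of the mitochondrial inner membrane. They carried it in every cell type on a mixed genetic background, and homozygous embryos of the line die in utero. WT mice were littermates, and no animal of either group was treated. Both sexes were used in the study. The sex of each sequenced mouse did not enter the comparison, and its part in the values was not tested.

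Autophagy encloses cytoplasm in a double membrane and delivers it to the lysosome. A kinase complex around ULK1 and a lipid kinase complex around Beclin 1 start the membrane, a conjugation system akin to ubiquitination fixes LC3 and GABARAP proteins to it, cargo receptors bind these proteins and their load, and Rab7, syntaxin 17 and lysosomal membrane proteins serve the fusion with the lysosome. Mitophagy is the same process with a mitochondrion as cargo, marked either by PINK1 and ubiquitin or by receptors of the outer mitochondrial membrane such as BNIP3 and FUNDC1. Much of this machinery is regulated on proteins, by phosphorylation, lipidation and turnover, which counts of mRNA do not measure. The protein values of the study come from other samples of several ages, and those of p62 from staining in spiral ganglion neurons.

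The genotype was seen in *Opa1* itself. *Opa1* had 119, 126, 112 and 122 CPM (counts relative to the size of the library, scaled between libraries by edgeR's TMM factors) in the 4 WT mice, and 63.5, 68.4, 60.4 and 70 CPM in *Opa1*+/- mice 2, 7, A and B. The groups were far apart, with a log2 fold change of -0.87, a standard error of 0.0677 and, in edgeR, a p of 0.00515 after Benjamini-Hochberg adjustment over all genes tested. Without mouse 2 the log2 fold change was -0.85 and the adjusted p 0.0704. Counts on named genes ranged from 15978051 to 20828030 per mouse, and those on 1 member in 1 mouse from 163 to 9513. Sets of markers of hair cells, spiral ganglion neurons, Schwann cells and the stria vascularis were all detected in every mouse, so the libraries hold the cell types of a cochlea. The summed level of 9 erythroid markers was 7749 to 21477 CPM in WT and 15081 to 25066 CPM in *Opa1*+/- mice (exact two-sided permutation p = 0.171), and that of 6 Schwann cell markers 2636 to 3582 and 3267 to 4462 CPM (exact two-sided permutation p = 0.257). Each of these 15 markers had a higher mean in *Opa1*+/- mice, and none was at 0 in any mouse. Skeletal muscle markers lay on the other side, 0 of 7 with a higher mean and a median log2 fold change of -0.79, with sums of 207 to 1984 CPM in WT (highest in mouse 6) and 15.6 to 965 CPM in *Opa1*+/- mice (lowest in mouse B, exact two-sided permutation p = 0.714), and the remaining marker lists overlapped between the genotypes as well. The part of blood, Schwann cells or muscle in the values below was not tested. RNA of the whole cochlea was sequenced, so fewer cells of a type and less RNA per cell cannot be told apart.

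Not 1 of the 49 members reached an adjusted p under 0.05. The lowest adjusted p was 0.722 with edgeR and 0.625 with DESeq2, and over all genes tested these tools called 0.0258% and 0.129%. At an adjusted threshold of 0.1, where edgeR called 0.0568% of all genes, the number of members called was still 0. The fitted log2 fold changes of the members ran from -0.22 for *Atg4c* to 0.16 for *Atg4d*. Means were higher in *Opa1*+/- mice for 26 members and lower for 23, that is 53.1% and 46.9%, beside 50.1% and 49.9% of all genes tested. The median log2 fold change was 0.014 over the members and 0.000395 over all genes, and the median size regardless of sign was 0.0845 and 0.0986.

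**Figure D1:**
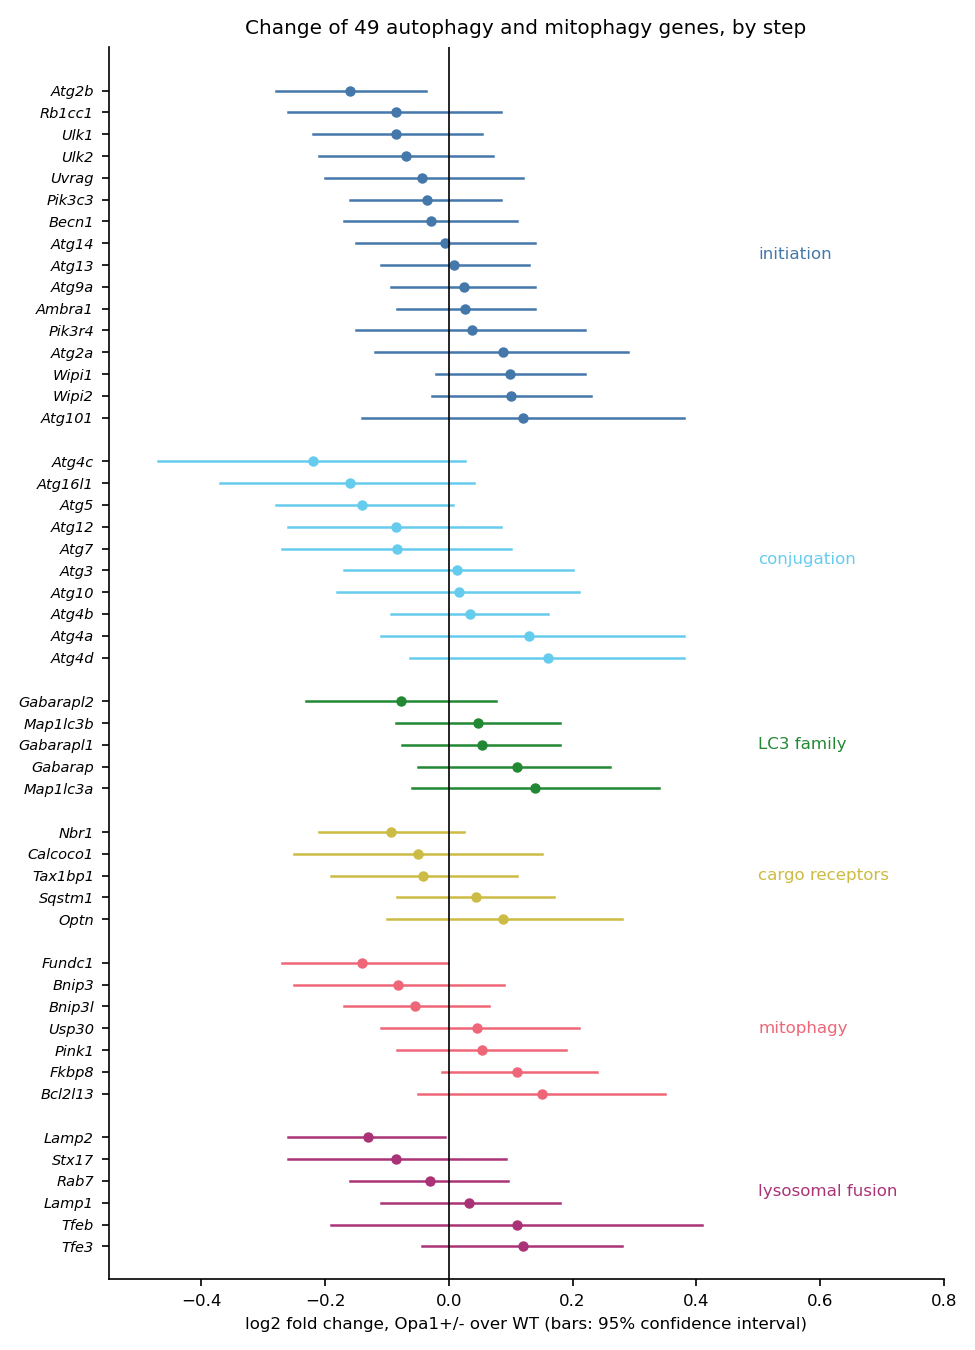
Log2 fold change of each of the 49 genes, *Opa1*+/- over WT, on the horizontal axis, with genes grouped by step and bars for the 95% confidence interval of edgeR's fit. All points lie between -0.22 and 0.16, and only the intervals of *Atg2b*, *Fundc1* and *Lamp2* stay on one side of 0.

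The intervals say how large a difference these 8 mice leave room for. The 95% confidence interval of 28 of the 49 members lay within 0.25 log2 units of 0, that of all 49 within 0.5, and no bound went beyond -0.47 or 0.41 on the log2 scale. *Opa1* in the same libraries had a log2 fold change of -0.87. The widest intervals were those of *Tfeb*, *Atg101* and *Atg4c*. The spread between mice of one genotype was small, with a median coefficient of variation of 5.37% over WT mice and 5.28% over *Opa1*+/- mice. It was smallest for *Fkbp8* in *Opa1*+/- mice (0.84%) and largest for *Tfeb* in WT mice (16.2%).

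Without adjustment, 3 members had an edgeR p under 0.05, and all 3 were lower in *Opa1*+/- mice. They were *Atg2b*, *Lamp2* and *Fundc1*, or 6.12% of the members beside 3.22% of all genes tested. In the other direction there were 0 members beside 3.51% of all genes. DESeq2 also gave 3 lower members (6.12% beside 3.07% of all genes) and 0 higher (beside 2.73%), with *Nbr1* in the place of *Fundc1*, and *Fundc1* was also lost with robust estimation and with library sizes counted without mitochondrial genes. Groups that did not overlap, so that each *Opa1*+/- mouse lay below each WT mouse, were found for *Atg2b*, *Nbr1*, *Fundc1* and *Lamp2*, or 8.16% of the members beside 2.33% of all genes. With each *Opa1*+/- mouse above each WT mouse there was only *Fkbp8*, 2.04% beside 1.98%. Scaled by total counts alone, the groups were apart for 3 members on the lower side, *Atg2b*, *Bnip3l* and *Lamp2* (6.12% beside 2.81% of all genes), and for 0 on the higher (beside 1.43%). The 5 members that were apart under TMM scaling come from 4 of the 6 steps. Leaving out WT mouse 8 left 0 members with an unadjusted p under 0.05, beside 1.76% of all genes higher and 1.96% lower, and leaving out both *Opa1*+/- mice with 3-digit numbers left 0 beside 1.46% and 1.44%. Without WT mouse 6, 6.12% of the members were higher and 10.2% lower (3 and 5 genes), beside 3.96% and 3.86% of all genes. Of the members, 20 were chosen by rule to be named with full values, and *Atg101* was not among them. With differences this small, the log2 fold change of 14 of these 20 moved by over 1.5 times, up or down, when some 1 mouse was left out. It did not for *Atg2b*, *Atg4c*, *Atg4d*, *Nbr1*, *Fkbp8* and *Lamp2*.

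**Figure D2:**
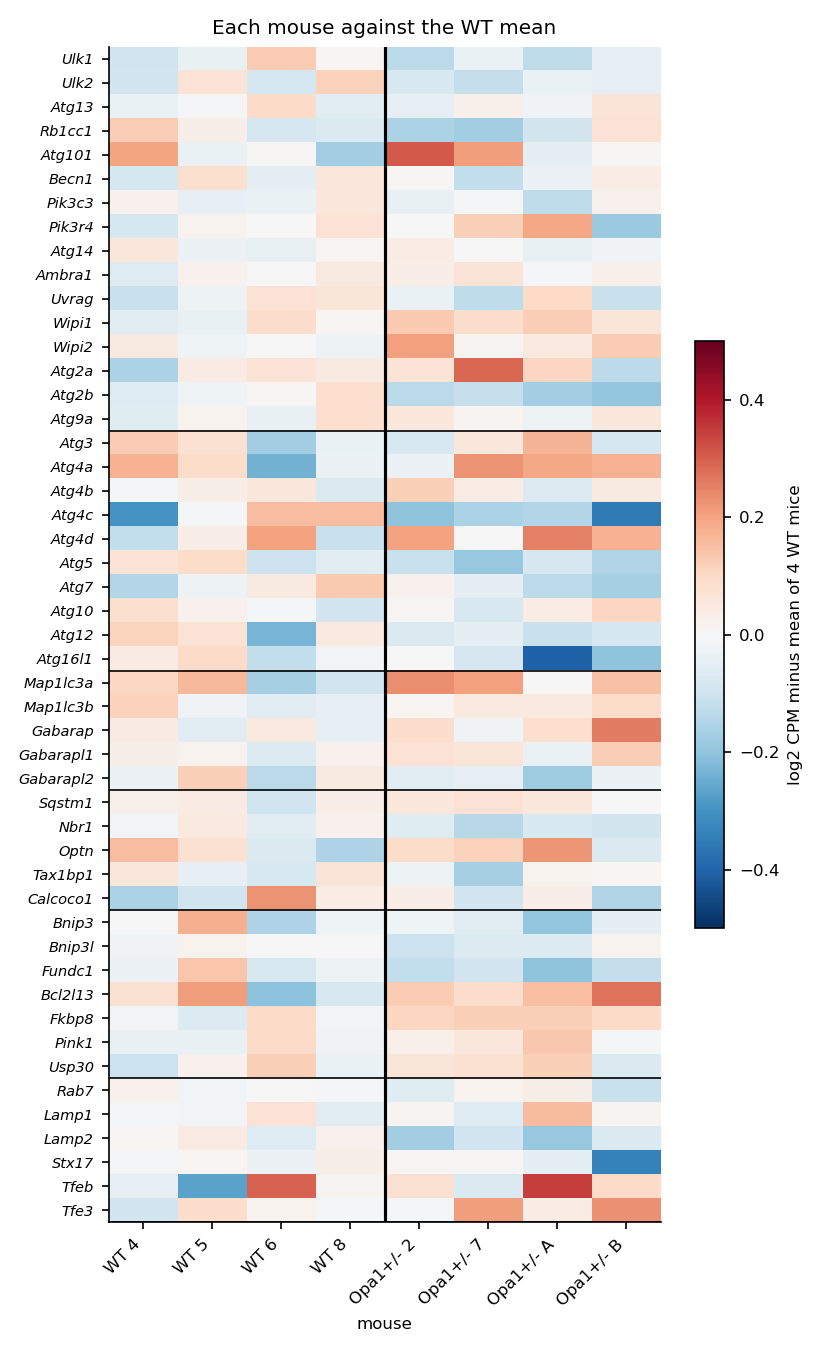
Log2 CPM of each gene in each of the 8 mice, less the mean of the 4 WT mice, with genes in rows by step and mice in columns. Blue is lower and red higher than the WT mean. No step has 1 colour across all 4 *Opa1*+/- mice.

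Initiation held 16 members, 8 with a higher and 8 with a lower mean in *Opa1*+/- mice, and a median log2 fold change of 0.0007, on either side of 0 (-0.01 to 0.0028) with 1 mouse left out at a time. *Becn1* encodes Beclin 1, the scaffold of the lipid kinase complex, whose phosphorylated protein the study assays. The gene lies on chromosome 11 from 101285952 to 101302286 of GRCm38. It had 77.9, 87.3, 80.2 and 85.7 CPM in WT mice 4, 5, 6 and 8 and 83.0, 76.0, 81.0 and 84.8 CPM in *Opa1*+/- mice 2, 7, A and B. The groups overlapped throughout, with a log2 fold change of -0.028 (95% interval -0.17 to 0.11). How strand was used in counting is not known, and 43.93% of the annotated exon bases of *Becn1* are shared with *Cntd1* on the other strand, itself counted at a mean of 1.86 CPM. The other members of that complex differed as little. *Pik3c3*, the lipid kinase itself, went with a log2 fold change of -0.036, its regulatory subunit *Pik3r4* with 0.038, *Atg14*, which directs the complex to autophagy, with -0.0063, *Ambra1*, a Beclin 1 partner, with 0.026, and *Uvrag*, which defines a separate form of the complex, with -0.043. All 6 intervals lay within 0.25 log2 units of 0.

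In the ULK complex, the kinases *Ulk1* and *Ulk2* had log2 fold changes of -0.085 and -0.069, the scaffold *Rb1cc1* (FIP200) -0.086, and the adaptors *Atg13* and *Atg101* 0.0077 and 0.12. *Atg101* was the least precise, with 12.8, 10.9, 11.2 and 9.89 CPM in WT mice and 13.8, 12.9, 10.8 and 11.2 CPM in *Opa1*+/- mice, and its interval ran from -0.14 to 0.38. Of the genes that serve growth of the membrane, *Atg2b* stood lowest. ATG2 proteins carry lipid from the endoplasmic reticulum into the growing membrane. *Atg2b*, on chromosome 12 from 105616136 to 105685211, had 34.1, 35.1, 35.8 and 37.8 CPM in WT mice and 32.5, 32.9, 31.6 and 31.2 CPM in *Opa1*+/- mice. All *Opa1*+/- mice were below all WT mice, though the gap between the groups was smaller than the range within WT. The fitted log2 fold change was -0.16 (95% interval -0.28 to -0.037, standard error 0.0531), with an unadjusted p of 0.0157 and an adjusted p of 0.722 in edgeR. Its relative *Atg2a* had a log2 fold change of 0.088 with overlapping groups. *Wipi1* and *Wipi2*, which read the lipid made by the Beclin 1 complex, had 0.099 and 0.10, and *Atg9a*, the membrane protein of the vesicles that seed the process, 0.025. *Atg9a* shares 31.79% of its exon bases with *Gm29253* on the same strand, so that its reads could have been divided.

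Conjugation held 10 members, 5 higher and 5 lower, with a median log2 fold change of -0.035. Here were both ends of the range. ATG4 proteases trim LC3 and GABARAP proteins before conjugation and remove them afterwards. *Atg4c* had 14.3, 17.5, 19.6 and 19.6 CPM in WT mice and 15.3, 15.8, 15.9 and 13.8 CPM in *Opa1*+/- mice. WT mouse 4 lay among the *Opa1*+/- mice, and the other WT mice lay above them. The log2 fold change was -0.22 (95% interval -0.47 to 0.026, standard error 0.11, unadjusted p = 0.0743 in edgeR). *Atg4d* had 13.1, 14.6, 16.4 and 13.2 CPM in WT mice and 16.4, 14.3, 17 and 16.1 CPM in *Opa1*+/- mice. It had a log2 fold change of 0.16 (95% interval -0.063 to 0.38), with WT mouse 6 as high as *Opa1*+/- mouse 2. *Kri1* on the other strand shares 19.34% of its exon bases. *Atg4a* and *Atg4b* had log2 fold changes of 0.13 and 0.034. A near-identical copy, *Atg4a-ps*, was counted at 37.8% of the level of *Atg4a*, whose log2 ratio with that copy added was 0.12.

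*Atg3*, the enzyme that attaches LC3 proteins to lipid, was the most abundant of this step per length, though not in CPM, and did not separate the groups. It had 52.7, 50.9, 42.8 and 47.2 CPM in WT mice and 45.7, 50, 54.3 and 45.5 CPM in *Opa1*+/- mice, a log2 fold change of 0.014 (95% interval -0.17 to 0.20). Of the other enzymes and the ATG12 branch, 4 of 5 had a lower mean in *Opa1*+/- mice, none past the test. *Atg7*, the activating enzyme of both branches, had a log2 fold change of -0.084, *Atg10*, which conjugates ATG12, 0.017, and *Atg12* itself -0.086. *Atg5*, the partner of ATG12, had -0.14 (95% interval -0.28 to 0.0074), and *Atg16l1*, which places the conjugate on the membrane, -0.16 (95% interval -0.37 to 0.04). In *Atg16l1* the lowest level was that of *Opa1*+/- mouse A, 21.8 CPM, while *Opa1*+/- mouse 2 had 28.9 CPM, within the WT range of 26.5 to 30.8 CPM.

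The LC3 family had 4 members with a higher mean in *Opa1*+/- mice and 1 with a lower one, and a median log2 fold change of 0.054. That median lay between 0.032 without *Opa1*+/- mouse B and 0.089 without WT mouse 4. *Map1lc3b* encodes LC3B, whose lipid-bound form is used to mark autophagosomes. Among its immunoblots the study lists LC3B, though its text gives no level for that protein. The gene *Map1lc3b* is described next. On chromosome 8 from 121590361 to 121598760, it had 283, 258, 251 and 254 CPM in WT mice and 263, 270.4, 270.0 and 278 CPM in *Opa1*+/- mice. WT mouse 4 was above all others and the remaining WT mice were below all *Opa1*+/- mice. The log2 fold change was 0.048 (95% interval -0.086 to 0.18). Processed pseudogenes resemble this gene closely, and 4 of them, between 96.5% and 99.7% identical over the aligned part, were counted at 15.4% of its level in all. With their counts added, the mean level was 300.3 CPM for WT (SD 16.2, n = 4), against 313 CPM for *Opa1*+/- mice (SD 7.01, n = 4).

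*Map1lc3a* had the largest fold change of the family. It had 97.1, 101, 80.4 and 84.4 CPM in WT mice and 106, 104, 90.3 and 100 CPM in *Opa1*+/- mice, and 0.14 as log2 fold change (95% interval -0.06 to 0.34), which was 0.085 without WT mouse 6. The groups overlapped through WT mice 4 and 5. *Gabarapl1* had 241, 239, 225 and 239.8 CPM in WT mice and 248, 246, 231 and 257 CPM in *Opa1*+/- mice, and a log2 fold change of 0.054 (95% interval -0.076 to 0.18). *Opa1*+/- mouse A lay within the WT range and the others above it. *Gabarap* had a log2 fold change of 0.11 and *Gabarapl2* of -0.077. *Gabarapl2* also has 3 near-identical pseudogenes, with 18.4% of its level, and its log2 ratio with them added was -0.073.

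**Figure D3:**
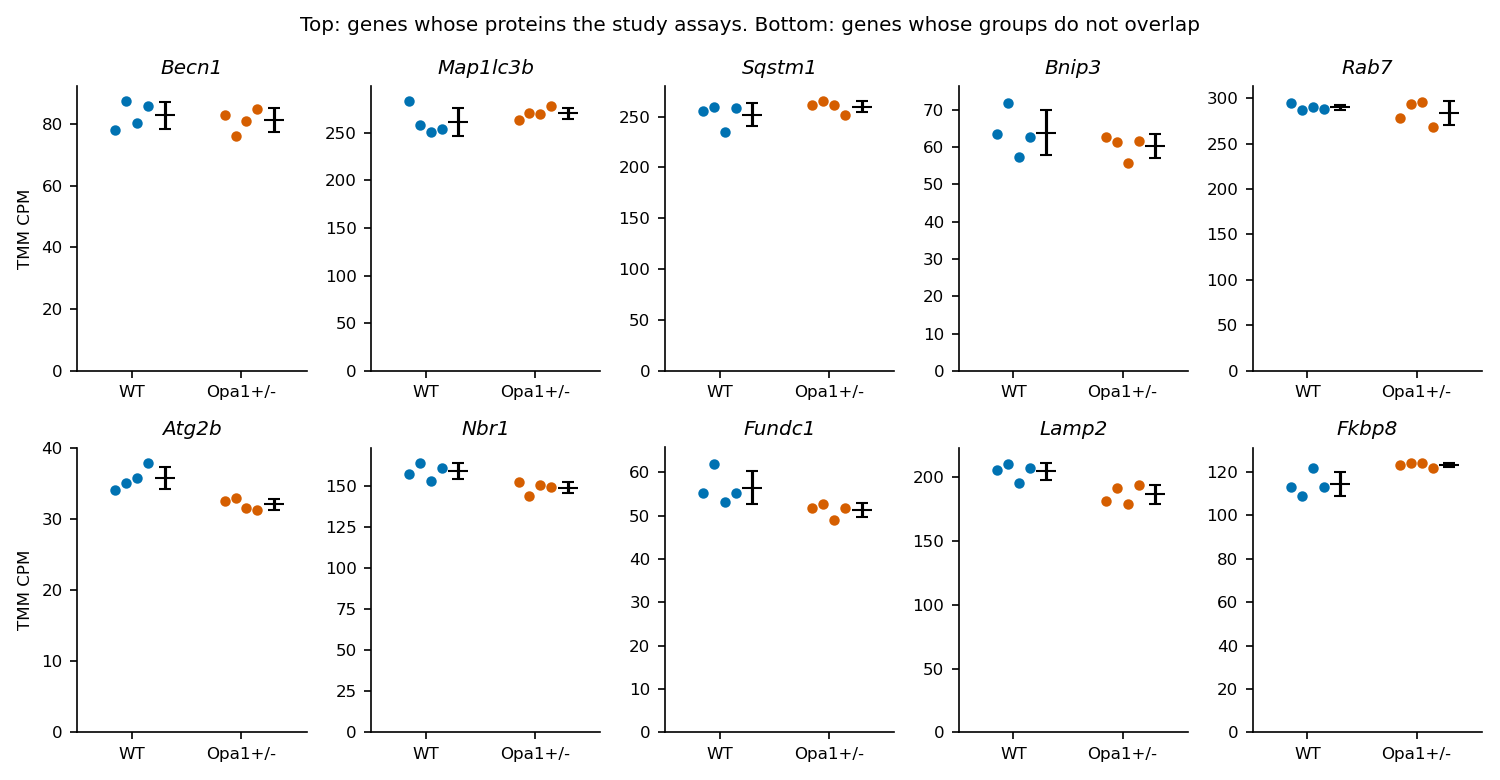
TMM CPM on the vertical axis, from 0, for 10 genes, with 1 point per mouse (blue WT, orange *Opa1*+/-) and mean and SD (n = 4) in black. In the upper row, genes whose proteins the study assays, the groups overlap in all 5. In the lower row, chosen because the groups do not overlap, *Atg2b*, *Nbr1*, *Fundc1* and *Lamp2* are lower and *Fkbp8* higher in *Opa1*+/- mice.

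The 5 cargo receptors had a median log2 fold change of -0.042, which turned to 0.012 without WT mouse 6 and to 0.02 with a surrogate variable in the fit. That variable mostly set the same mouse apart, with -0.877 in WT mouse 6 and -0.0791 to 0.32 in the other mice. *Sqstm1* encodes p62, which binds ubiquitinated cargo and LC3 and is itself degraded with them. On chromosome 11 from 50199366 to 50210827, it had 256, 259, 235 and 258 CPM in WT mice and 261, 265, 261 and 252 CPM in *Opa1*+/- mice. WT mouse 6 was the lowest, and *Opa1*+/- mouse B was below all WT mice but that one. The log2 fold change was 0.044 (95% interval -0.083 to 0.17). *Nbr1*, a receptor of similar build that binds the same kinds of cargo, had 157, 164, 153 and 161 CPM in WT mice and 152, 144, 150.4 and 149 CPM in *Opa1*+/- mice. Its groups did not overlap, yet WT mouse 6 and *Opa1*+/- mouse 2 were nearly equal. The gene lies on chromosome 11 from 101552149 to 101581951, with a log2 fold change of -0.094 (95% interval -0.21 to 0.024, standard error 0.0528, adjusted p = 0.765 in edgeR). *Calcoco1*, a receptor for endoplasmic reticulum, had 56.6, 58.9, 73.8 and 64.8 CPM in WT mice and 64.7, 59.2, 64.7 and 56.9 CPM in *Opa1*+/- mice, with a log2 fold change of -0.05. WT mouse 6 was its highest, and without that mouse the log2 fold change of *Calcoco1* turned to 0.03. The ubiquitin-binding receptors *Optn* and *Tax1bp1* had 0.087 and -0.042.

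Among the 7 mitophagy members, 4 had a higher and 3 a lower mean in *Opa1*+/- mice, and the median log2 fold change was 0.046, between 0.012 without WT mouse 4 and 0.086 without WT mouse 6. *Bnip3*, a receptor of the outer membrane induced by low oxygen, whose protein the study assays, had 63.6, 71.9, 57.2 and 62.6 CPM in WT mice and 62.7, 61.3, 55.6 and 61.7 CPM in *Opa1*+/- mice. WT mouse 5 stood above all others and the rest were mixed. It lies on chromosome 7 from 138890836 to 138909519, with a log2 fold change of -0.082 (95% interval -0.25 to 0.09), which went to -0.019 when WT mouse 5 was left out and to -0.13 when WT mouse 6 was. The 2 near-identical pseudogenes of *Bnip3* were counted at 8.3% of its level, and its log2 ratio with them added was -0.071. *Bnip3l* (NIX), its relative, known for the clearance of mitochondria from maturing red cells, had a mean of 151 CPM for WT (SD 1.6, n = 4), against 145 CPM for *Opa1*+/- mice (SD 5.38, n = 4), with a log2 fold change of -0.054, beside the erythroid markers given above. A near-identical copy, *Bnip3l-ps*, was counted at 27.4% of its level, and the log2 ratio with that copy added was -0.052.

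*Fundc1*, a receptor of the outer membrane that binds LC3 directly, had 55.1, 61.9, 53.2 and 55.3 CPM in WT mice and 51.7, 52.6, 48.9 and 51.8 CPM in *Opa1*+/- mice. All *Opa1*+/- mice were below all WT mice, with WT mouse 5 well above the rest. On chromosome X from 17556564 to 17572325, it had a log2 fold change of -0.14 (95% interval -0.27 to -0.0017, standard error 0.0604), an unadjusted p of 0.0476 and an adjusted p of 0.735 in edgeR. Without WT mouse 5 its log2 fold change was -0.089. A pair of other receptors had a higher mean in *Opa1*+/- mice. *Fkbp8*, an outer membrane immunophilin, had 113, 109, 122 and 113 CPM in WT mice and 123, 124, 124 and 122 CPM in *Opa1*+/- mice, with WT mouse 6 next to the *Opa1*+/- mice. Its log2 fold change was 0.11 (95% interval -0.011 to 0.24, standard error 0.0554, adjusted p = 0.758 in edgeR), on chromosome 8 from 70527724 to 70535328. Its groups overlapped when libraries were scaled by DESeq2 size factors or by total counts. *Kxd1* on the other strand, counted at a mean of 388 CPM, shares 4.946% of the exon bases of *Fkbp8*. *Bcl2l13*, a receptor of the BCL2 family, had 34.7, 38.1, 28.6 and 31.2 CPM in WT mice and 36.0, 35.0, 36.6 and 39.8 CPM in *Opa1*+/- mice, and a log2 fold change of 0.15 (95% interval -0.05 to 0.35). That value was 0.088 in the absence of WT mouse 6 and reached 0.23 in that of WT mouse 5. *Pink1*, the kinase that builds up on damaged mitochondria, had 197, 197, 216 and 200 CPM in WT mice and 206, 210.3, 222 and 201 CPM in *Opa1*+/- mice. It differed less than mice within a genotype did (0.053, 95% interval -0.083 to 0.19), as did *Usp30*, a deubiquitinase of the outer membrane that opposes mitophagy (0.046).

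Of the 6 genes of lysosomal fusion, 3 had a higher and 3 a lower mean, with a median log2 fold change of 0.0012 that turned to -0.027 without *Opa1*+/- mouse A and to -0.025 by total counts. *Rab7*, the small GTPase of late endosomes, another protein of the study, had 294, 287, 289.8 and 288 CPM in WT mice and 278, 293, 296 and 268 CPM in *Opa1*+/- mice. WT mice lay in a narrow range, with *Opa1*+/- mice below, within and above it. Its log2 fold change was -0.03 (95% interval -0.16 to 0.096), on chromosome 6 from 87999106 to 88045270. *Lamp2*, a glycoprotein of the lysosomal membrane needed for fusion, had 205, 210, 195 and 207 CPM in WT mice and 181, 191, 179 and 194 CPM in *Opa1*+/- mice. The groups did not overlap, with WT mouse 6 and *Opa1*+/- mouse B next to each other. *Lamp2* lies on chromosome X from 38401357 to 38456454, and its log2 fold change was -0.13 (95% interval -0.26 to -0.0069, standard error 0.0562), with an unadjusted p of 0.0407 and adjusted p of 0.728 in edgeR. *Lamp1*, its relative, had 467, 465, 493 and 452 CPM in WT mice and 474, 449, 523 and 473 CPM in *Opa1*+/- mice, with a log2 fold change of 0.033 (95% interval -0.11 to 0.18), which turned to -0.0074 without *Opa1*+/- mouse A. *Stx17*, the SNARE of the autophagosome, had -0.086, and there *Opa1*+/- mouse B with 25.2 CPM was below the other mice, which ranged from 30.9 to 32.5 CPM.

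*Tfeb* and *Tfe3* encode transcription factors that switch on lysosomal and autophagy genes. *Tfeb* was one of the scarcest members, with 13, 11.1, 16.4 and 13.5 CPM in WT mice and 14.1, 12.7, 17 and 14.3 CPM in *Opa1*+/- mice, and a log2 fold change of 0.11 (95% interval -0.19 to 0.41). Without WT mouse 5 it was 0.026, and without WT mouse 6 it was 0.22. *Tfe3* had 0.12 (95% interval -0.044 to 0.28). Both factors bind the E-box CACGTG, and the promoters of the members were read for these 6 letters, which are the same on both strands. RefSeq promoters of GRCm38.p6, from 250 bases before to 50 after the start, were matched for 42 members. The starts are those of RefSeq, which for *Atg7* and *Atg14* lie inside the longer gene of the GENCODE annotation. The E-box was present in 6 of these (14.3%), beside 2187 of all 27025 promoters (8.09%). With 1 more letter, as TCACGTG or its reverse complement CACGTGA, it was in 4 member promoters (9.52%) and in 1160 of all (4.29%). The sequences around it are shown to let the 6 promoters be compared, each from 10 bases before the first to at most 10 after the last E-box and in the direction of the gene, with every E-box in capitals.
*Atg14* (chr14:47568420-47568445, minus strand): aacaaaatccCACGTGactggccctg
*Atg3* (chr16:45158725-45158773, plus strand): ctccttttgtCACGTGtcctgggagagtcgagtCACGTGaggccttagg
*Atg5* (chr10:44268315-44268340, plus strand): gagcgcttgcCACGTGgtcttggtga
*Atg7* (chr6:114670954-114670979, plus strand): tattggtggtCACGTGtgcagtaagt
*Bnip3* (chr7:138909599-138909624, minus strand): gcacgcgccgCACGTGccacacgctc
*Lamp1* (chr8:13159090-13159160, plus strand): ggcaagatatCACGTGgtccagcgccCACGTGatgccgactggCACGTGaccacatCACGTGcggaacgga
*Lamp1* held 4 E-boxes between 61 and 15 bases before its start, and *Atg3* held 2. The log2 fold changes of these genes were 0.033 for *Lamp1*, 0.014 for *Atg3*, -0.0063 for *Atg14*, -0.14 for *Atg5*, -0.084 for *Atg7* and -0.082 for *Bnip3*, none of them past the test. The median was -0.044 with the E-box and 0.036 over the members whose promoter lacks it.

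Levels of different members were compared per length, as TPM, the counts of a gene divided by its exon length and scaled to the same total in each mouse. The 49 genes ran from 3.62 TPM for *Atg4d* to 323 TPM for *Lamp1* in WT mice. The most abundant member of each step was *Becn1* in initiation (21.6 TPM, SD 2.57, n = 4), *Atg3* in conjugation (28.2 TPM, SD 3.08), *Gabarapl1* in the LC3 family (216 TPM, SD 22.1), *Sqstm1* among cargo receptors (139 TPM, SD 15.3), *Pink1* in mitophagy (139 TPM, SD 13.2) and *Lamp1* in lysosomal fusion. Each of these was above the next member of its step in all 8 mice. The scarcest were *Atg2b*, *Atg4d*, *Map1lc3b*, *Calcoco1*, *Bcl2l13* and *Tfeb*. The 5 LC3 family genes held 29.8% of the summed TPM of the members for WT (SD 0.807, n = 4), against 30.9% for *Opa1*+/- mice (SD 1.32, n = 4), and the 10 conjugation genes 5.2% (SD 0.161) and 5% (SD 0.106). The shares of all 6 steps overlapped between the genotypes.

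**Figure D4:**
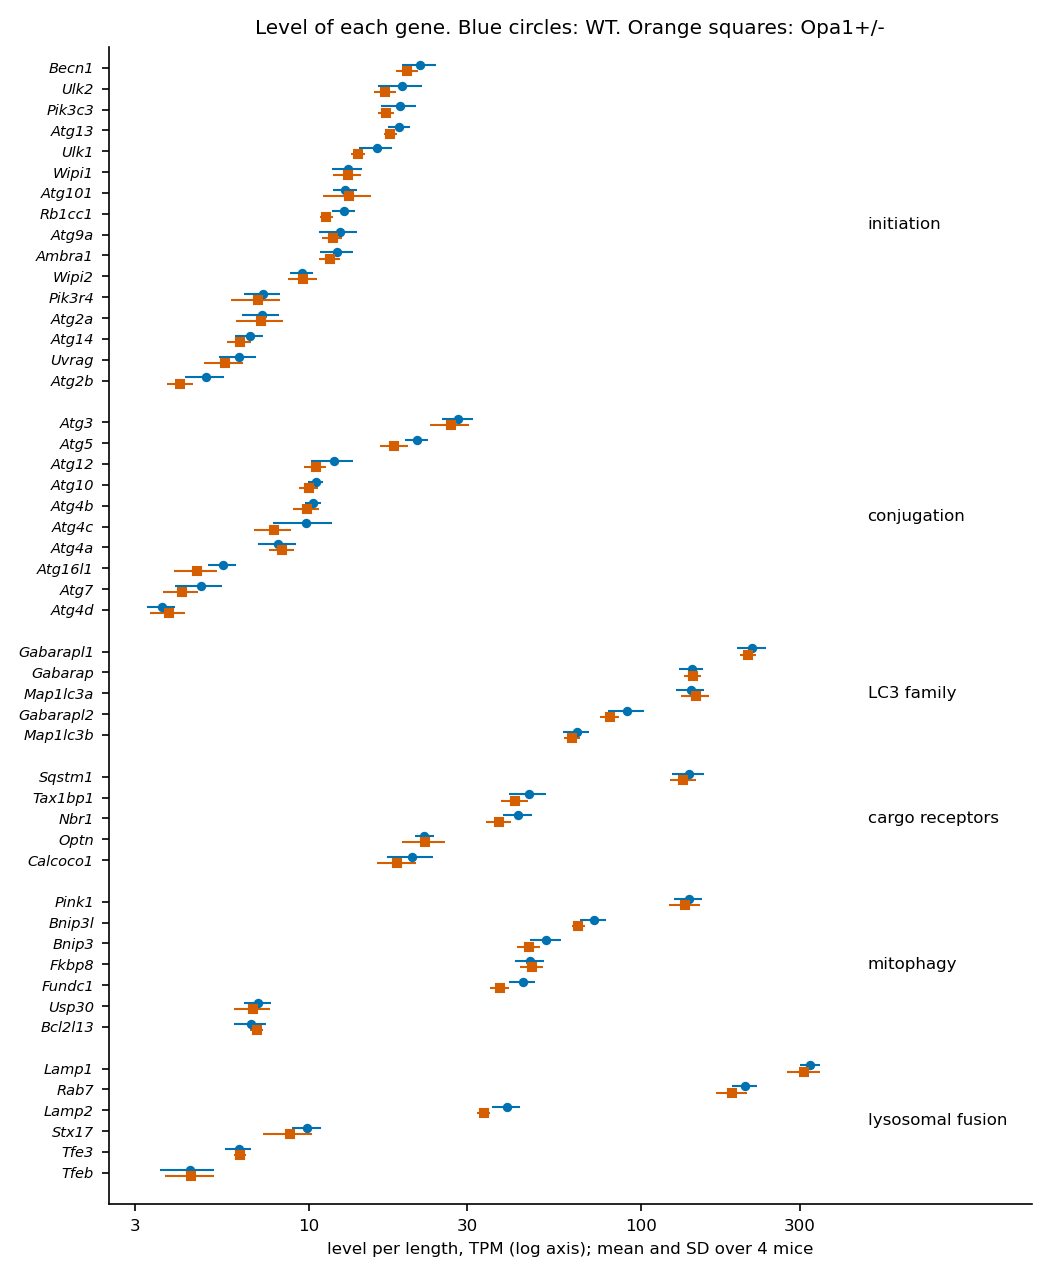
Level of each gene per length, in TPM on a log axis, as mean and SD over the 4 WT mice (blue circles) and the 4 *Opa1*+/- mice (orange squares), ordered within each step. The LC3 family genes and *Sqstm1*, *Pink1*, *Bnip3l*, *Rab7* and *Lamp1* are above 60 TPM, while initiation and conjugation genes stay under 30 TPM.

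In the LC3 family, *Gabarapl1* was above *Gabarap* and *Map1lc3a*, whose levels could not be told apart (142 and 141 TPM, with *Gabarap* the higher in 4 of 8 mice), followed by *Gabarapl2* (90.8 TPM) and *Map1lc3b* (64.0 TPM). Among mitophagy genes *Pink1* was followed by *Bnip3l* (72 TPM), by *Bnip3* (51.8 TPM) and *Fkbp8* (46.4 TPM), which were not ordered in the same way in all mice, and by *Fundc1* (44.1 TPM), whereas *Usp30* and *Bcl2l13* were at 7.03 and 6.70 TPM, with *Usp30* the higher in 5 of 8 mice. In lysosomal fusion *Rab7* (205 TPM) and *Lamp2* (39.4 TPM) came after *Lamp1*, and *Stx17*, *Tfe3* and *Tfeb* were at 9.90, 6.16 and 4.39 TPM. The initiation genes from *Ulk2* to *Ambra1* lay between 19.1 and 12.2 TPM, and most neighbours in that order changed places between mice. With the longest transcript in place of the joined exons the most abundant member of each of the 6 steps was the same one, while the scarcest changed in 3, from *Atg2b* to *Atg14*, from *Calcoco1* to *Optn* and from *Tfeb* to *Tfe3*. By that length *Map1lc3b* came to 104 TPM, *Lamp2* to 93.0 TPM and *Fkbp8* to 104 TPM, above *Bnip3l* at 75.9 TPM.

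Related genes were also set against each other within each mouse, since such a ratio does not depend on the scaling of the libraries. The 10 pairs were chosen after the values of the members were known, and the p-values given for them do not allow for that choice. The groups were apart in 1 pair, *Gabarapl1* over *Gabarapl2*, with log2 ratios of CPM of 1.10, 0.95, 1.11 and 1.03 in WT mice and 1.17, 1.15, 1.19 and 1.2 in *Opa1*+/- mice. The difference was 0.13 (exact two-sided permutation p = 0.0286, the smallest that 70 arrangements can give, and 0.214 after adjustment over the 10 pairs). In *Atg4c* over *Atg4d* the mean log2 ratio was 0.31 for WT (SD 0.191, n = 4), against -0.067 for *Opa1*+/- mice (SD 0.155, n = 4; exact two-sided permutation p = 0.0571, adjusted p = 0.214). *Atg2a* over *Atg2b* and *Lamp1* over *Lamp2* differed by 0.24 and 0.16 (exact two-sided permutation p = 0.0857 and adjusted p = 0.214 for each), and the remaining 6 pairs by at most 0.11 in size. No pair was past an adjusted p of 0.05.

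**Figure D5:**
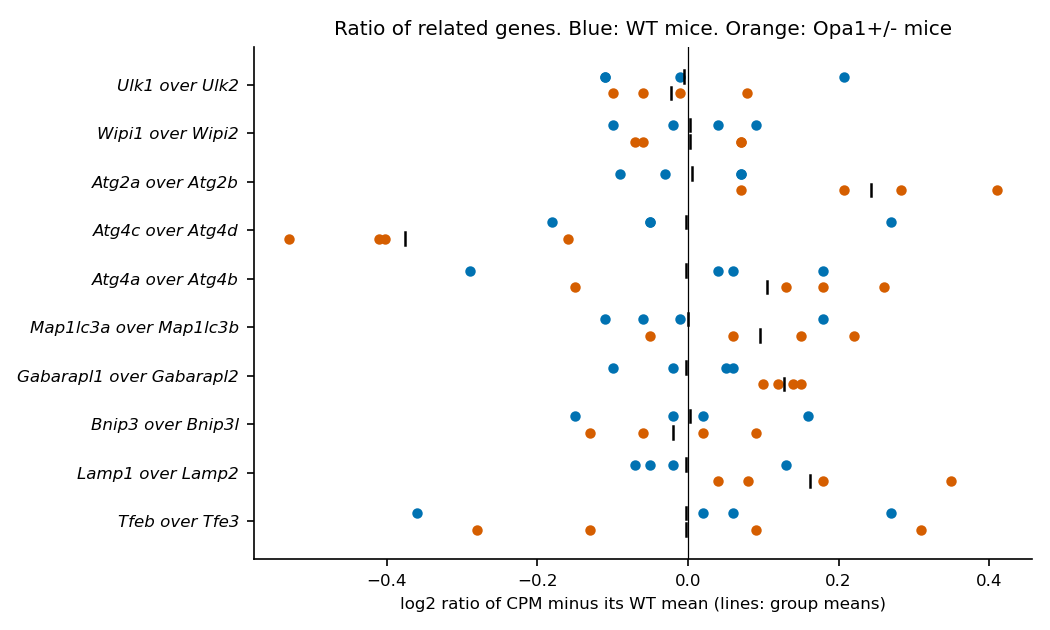
Log2 ratio of CPM within each of 10 pairs of related genes, less its WT mean, with 1 point per mouse (blue WT, orange *Opa1*+/-) and a line for each group mean. The groups are apart for *Gabarapl1* over *Gabarapl2*, where *Opa1*+/- mice are higher by 0.13, and overlap in the other pairs.

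Other genes of the pathway were read from 6 lists, 116 genes of which 115 were tested, with 0 past an adjusted p of 0.05 in edgeR or DESeq2. Without adjustment 3 were higher and 3 lower with an edgeR p under 0.05, that is 2.61% each way beside 3.51% and 3.22% of all genes, so these lists did not stand above the background. *Lamtor1*, part of the complex that tethers mTORC1 to the lysosome, had 43.1, 46.6, 47.1 and 44.8 CPM in WT mice and 52.9, 49.9, 52.5 and 52.9 CPM in *Opa1*+/- mice. Its groups did not overlap, with a log2 fold change of 0.20 (95% interval 0.08 to 0.31, adjusted p = 0.722 in edgeR). The others with such a p were *Tomm7*, which holds PINK1 at the outer membrane (mean 51.6 CPM for WT against 58.6 CPM), *Phb2*, an inner membrane receptor for LC3 (47.2 against 53.1 CPM), *Trp53inp1*, an LC3-binding protein induced by p53 (63.8 against 48.2 CPM), *Wdfy3*, a scaffold for aggregates (117 against 105 CPM), and *Prkaa1*, a catalytic subunit of AMPK (59.6 against 53.3 CPM), with log2 fold changes of 0.18, 0.17, -0.41, -0.15 and -0.16. In the 3 lists with no such gene, the lowest p, all over 0.05 without adjustment, belonged to *Vti1b*, a SNARE (log2 fold change 0.14), *Glb1*, the lysosomal beta-galactosidase (0.10), and *Atp6v1a*, a subunit of the vacuolar ATPase (-0.16). Besides *Lamtor1*, the groups were apart for *Tomm7* and *Glb1*, also higher in *Opa1*+/- mice, and overlapped for the other genes named from these lists. Over all genes tested, 1.98% were apart on the higher side and 2.33% on the lower. By list, the lowest adjusted p in edgeR was 0.722 for other autophagy core genes (median log2 fold change -0.033 over 18 genes), 0.722 for the control by mTORC1, AMPK and FOXO (-0.034 over 26), 0.722 for other mitophagy regulators (-0.017 over 14), 0.749 for SNARE and HOPS genes (-0.02 over 13), 0.772 for lysosomal hydrolases and transporters (0.0085 over 28) and 0.741 for subunits of the vacuolar ATPase (-0.0075 over 16).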

How the data were processed

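Cochlear RNA of 4 WT and 4 *Opa1*+/- mice was sequenced as CORALL libraries (paired reads, 80 nucleotides), which the authors trimmed and mapped to GRCm38 with STAR. For each mouse they deposited raw counts per gene symbol, whole numbers without normalization, from which all values here were computed. The counting program and its use of strand are not given in the sources used here, so overlapping genes and near-identical copies are uncertain. After *Becn1*, *Atg9a* and *Atg4d*, named above, the largest shares of exon bases overlapped by another gene were in *Gabarapl1* (28.32%), *Bnip3* (22.25%), *Uvrag* (17.59%) and *Sqstm1* (17.28%). In these 4 members the other gene lies on the other strand. The labels name either of 2 RNA extractions without saying which mouse had which, and its part in the values was not tested. Groups came from the labels. Each library is labelled with an animal number of its own.

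Entries with a number in place of a symbol (15, between 0.112% and 0.124% of counts) were left out. Mitochondrial genes took 11.7% to 16.1% of counts. Genes with a mean over 10 after DESeq2 normalization were tested by edgeR 4.0.16 (TMM, quasi-likelihood, Benjamini-Hochberg adjustment, threshold 0.05). Each standard error is the size of the log2 fold change over the root of F, and 95% intervals use the t distribution with the fit's degrees of freedom. Single values were compared by exact permutation over the mice, 70 arrangements, smallest p 0.0286. TPM used exon lengths of GENCODE vM21 (GRCm38), present for 45360 entries, and copies were sought with blastn at 95% identity over 200 bases. DESeq2 1.42.0, limma 3.58.1 (voom), sva 3.50.0, other scalings and filters and mice left out served as alternatives. The tests were checked on simulated data.

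Members and lists were chosen with earlier results of these data known. Named with full values were *Opa1*, members assayed as proteins, members with an unadjusted p under 0.05 or called by edgeR or DESeq2, members whose groups did not overlap, and the highest, lowest and most different member of each step. From each other list up to 3 genes with the lowest p were eligible, of which those with an unadjusted p under 0.05 or else the first are named, by mean or fold change. Other members are given by fold change, and some also by level.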

Additional observations from a re-analysis of the deposited data

Results flagged for a closer look

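In 2 of 40 groups of 4 mice, 1 mouse stood apart from the others of its genotype, and chance alone gives about 1 in 20. Both were WT mouse 6. *Gabarapl1* was 225 CPM in this mouse and 239 to 241 CPM in the other WT mice, a gap of 0.896 of the range of the group. *Sqstm1* was 235 CPM in it and 256 to 259 CPM in the others, a gap of 0.88 of the range. WT mouse 6 had the lowest value of the WT mice in 19 of the 49 members and the highest in 14, close to WT mouse 4 with 17 and 12. It had the lowest voom quality weight (0.50) and 1984 CPM of skeletal muscle markers. The part of these in the 2 values was not tested. Without it the log2 fold change was 0.012 for *Sqstm1*.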

How the results depend on the processing

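No paired analysis was possible because no animal number occurs in both genotypes. The number of members past the adjusted threshold was 0 under all 20 alternatives, with a lowest adjusted p of 0.381. With 1 mouse left out at a time, the log2 fold change of *Opa1* ran from -0.90 to -0.83 (adjusted p over 0.05 only without *Opa1*+/- mouse 2), the median of the members from -0.0063 to 0.025, members with an unadjusted p under 0.05 from 0 to 3 higher and 0 to 5 lower, and members whose groups did not overlap from 1 to 3 higher and 4 to 7 lower (the most without WT mouse 6, 6.12% and 14.3% beside 4.25% and 4.89% of all genes). *Atg3* ran from -0.040 to 0.058, *Becn1* from -0.055 to 0.0029, *Calcoco1* from -0.10 to 0.030 and *Lamp1* from -0.0074 to 0.063. Without both 3-digit *Opa1*+/- mice, *Opa1* had -0.86 (adjusted p = 0.26), the median was -0.0068, 0 members were lower at p under 0.05, 5 members were apart on the higher and 7 on the lower side (10.2% and 14.3%, beside 5.75% and 6.49% of all genes, as 2 mice are more easily apart than 4), and the log2 fold change was -0.017 for *Atg3*, -0.023 for *Lamp1* and -0.0046 for *Tfeb*. With WT mouse 4 also left out, a choice made after the data were seen, *Opa1* had -0.87 (adjusted p = 0.656), the median was -0.016, 1 member was higher and 1 lower at p under 0.05 (2.04% each, beside 2.59% and 2.75% of all genes), *Lamp1* had -0.030 and *Tfeb* -0.025. The surrogate variable, which mostly set WT mouse 6 apart, gave 2 higher and 5 lower (4.08% and 10.2%, beside 3.91% and 3.7% of all genes). With it the log2 fold change was -0.028 for *Atg3* and 0.035 for *Calcoco1*. Voom gave 2 higher and 4 lower (4.08% and 8.16%, beside 5.29% and 5.01%), and no count minimum 0 and 1 (2.04% lower, beside 1.95%). Total counts gave a median of -0.013 (-0.0277 over all genes) and -0.013 for *Atg3*. Neither total counts nor DESeq2 size factors left a member apart on the higher side (0, beside 1.43% and 1.87% of all genes, a check added with the data already seen). The cause was not tested. Counts of a member in a mouse went down to 163.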
